A study of Mus musculus with 8 samples.

Results

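Inhibitory receptors of naive CD4 T cells were examined as 9 genes taken by symbol from the deposited expression table, which lists 16418 genes. They are Pdcd1, Btla, Cd160, Lag3, Tigit, Cd96, Cd5 and Cd6, which encode receptors on the T cell, and Cd200, which encodes a surface ligand that engages an inhibitory receptor on other leukocytes. The RNA-seq data cover 4 KO libraries of tamoxifen-treated animals (Sample_2907_KO, Sample_2908_KO, Sample_2909_KO, Sample_2910_KO) and 4 WT libraries of untreated animals (Sample_2911_WT, Sample_2913_WT, Sample_2914_WT, Sample_2915_WT). All mice carried the same alleles, Satb1fl/fl with CD4-CreERT2wt/+, so the WT cells also hold floxed Satb1 and a Cre recombinase that acts only when tamoxifen is given and is driven by CD4 sequences. Tamoxifen was given to the KO mice alone, and its own effect and that of the Satb1 deletion cannot be told apart. Spleen and lymph node are given as the tissue, while the extraction protocol speaks of splenic cells alone. The cells were sorted as naive CD3+CD4+ cells without CD25 and with low or no CD44. The labels do not say whether each library came from a separate animal, and all p-values rest on the spread between these libraries, which may be technical.

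These receptors set the threshold at which a T cell answers antigen. PD-1, encoded by Pdcd1, and BTLA carry tyrosine motifs in their tails that recruit the phosphatases SHP-1 and SHP-2 and dampen signals from the T cell receptor and CD28. TIGIT and CD96 compete with the activating receptor CD226 for the ligand CD155, LAG-3 binds MHC class II, and CD5 and CD6 are scavenger receptor family proteins that sit close to the T cell receptor and tune its signal. In mouse T cells Satb1, a chromatin-organising protein, has been described as a repressor of Pdcd1.

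The libraries held 7544075 to 9253620 counted reads in KO and 5227758 to 21998174 in WT. Satb1 itself stood at 909.9 ± 87.2 CPM (counts scaled to library size) in KO cells and 1033 ± 41.4 CPM in WT cells (SD, n = 4 each). Its log2 fold change of -0.18 missed the threshold (edgeR adjusted p = 0.0582) and passed it in 4 of 18 processing alternatives. Reads were counted per gene, so they cannot show whether the floxed part of the transcript was lost. The name KO is used here for the treatment group. The naive CD4 marker genes were all detected, and their summed level was 7217 to 7700 CPM in KO and 6626 to 6816 CPM in WT. Of these 11 markers, 2 rose and 2 fell, while 3.98% of all tested genes rose and 2.41% fell. Their log2 fold changes ran from -0.19 (Cd4, which fell) to 0.74, with 7 positive and 4 negative. The B cell markers summed to 3.89 to 5.76 CPM in KO and 3.03 to 4.51 CPM in WT, so the sums overlapped. Of these 8 markers 2 had enough reads to be tested, with log2 fold changes of -0.013 and 0.77, and neither passed the threshold. The CD8 markers summed to 9.65 to 14.7 CPM in KO and 13.2 to 18.2 CPM in WT, and the myeloid and dendritic cell markers to 37.2 to 45.6 CPM in KO and 27.0 to 55.2 CPM in WT. Gamma delta T cell markers summed to 11.1 to 19.8 CPM in KO and 8.05 to 13.7 CPM in WT, and Trdc, the 1 tested, rose by a log2 fold change of 0.60 (adjusted p = 0.0426).

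**Figure D1:**
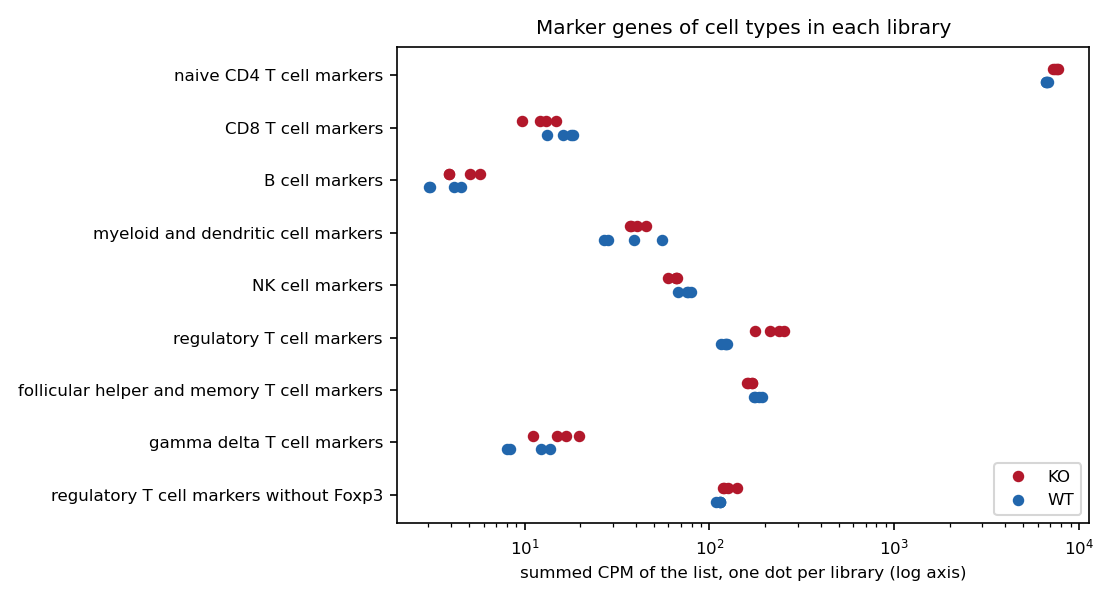
Summed CPM of each marker list in each library, on a log axis, with KO in red above WT in blue. The naive CD4 markers lie at or above 6626 CPM in all libraries, and the regulatory T cell sum separates the groups (175.5 to 253.6 CPM in KO, 116.2 to 124.5 CPM in WT). So do the sums of the naive CD4, NK, and follicular helper and memory lists, and the regulatory T cell sum without Foxp3.

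The 9 genes fell into an abundant and a scarce set. On the scale of CPM per kilobase of annotated exon, which allows genes to be compared, the order of mean levels in KO was Cd5 (94.5), Cd96 (68.2), Cd6 (66.7), Btla (52.9), Cd200 (4.43), Pdcd1 (4.43), Cd160 (1.14), Lag3 (0.513) and Tigit (0.0663). In WT it was Cd5 (93.2), Cd96 (75.3), Cd6 (68.6), Btla (62.5), Cd200 (4.05), Pdcd1 (1.85), Cd160 (1.15), Lag3 (0.632) and Tigit (0.540). Cd5 lay above Cd96 in all libraries, and Cd96 and Cd6 overlapped in both groups. Btla lay below them both in KO (50.1 to 57.8 CPM per kilobase), while in WT its range (53.0 to 73.4) overlapped theirs. Pdcd1 and Cd200 had overlapping ranges in KO (3.23 to 5.15 for Pdcd1 and 3.99 to 4.98 for Cd200), and in WT Pdcd1 lay below Cd200 in every library (1.40 to 2.19 for Pdcd1 and 3.43 to 4.54 for Cd200). Cd160 and Lag3 overlapped in KO (0.555 to 1.51 for Cd160 and 0.290 to 0.832 for Lag3) and not in WT (0.804 to 1.40 for Cd160 and 0.366 to 0.780 for Lag3).

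Of the 9 genes, 8 had enough reads to be tested across the whole table and 1, Tigit, did not. Pdcd1 rose, and the other 7 tested genes did not pass the threshold. Across all 11772 tested genes 752 changed at an adjusted p under 0.05 (6.39%), 468 of them higher in KO (3.98%) and 284 lower (2.41%), and the groups did not overlap in 11.1% of genes. Among the tested members 1 was called, 1 had no overlap between the groups, 3 had an unadjusted p under 0.05 (18.0% of all tested genes had one), and the median log2 fold change was -0.06, against -0.00047 over all genes tested. In bulk RNA, a change in how many cells carry a transcript and a change in the amount per cell cannot be told apart.

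**Figure D2:**
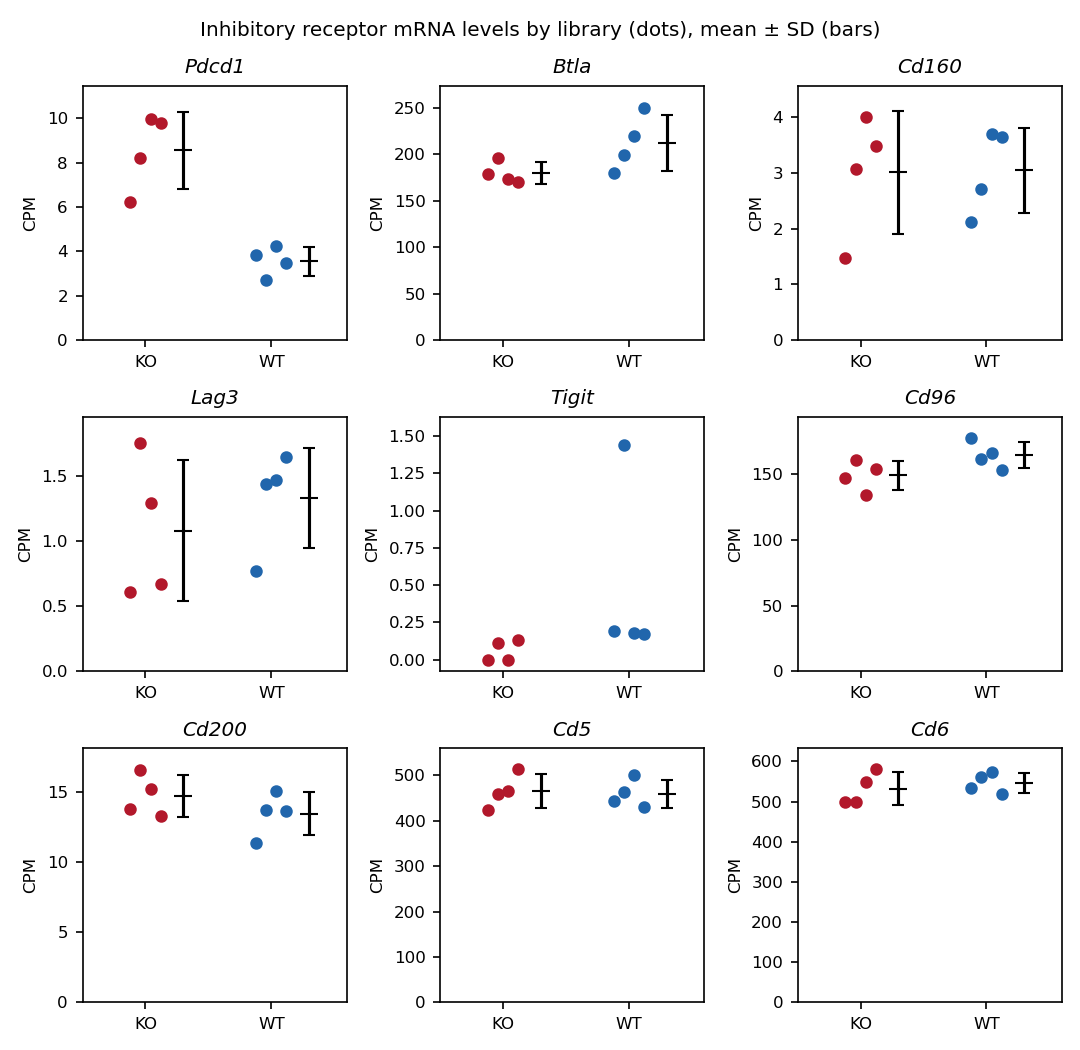
CPM of each gene in the 4 KO (red, left) and 4 WT libraries (blue, right), with black bars for the mean and SD. The axes start at or just below 0; Tigit has no bars because some of its libraries are at 0 reads. Pdcd1 in KO (6.23 to 9.94 CPM) lies above WT (2.70 to 4.23 CPM), and for the 7 other tested genes the groups overlap.

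Pdcd1 (ENSMUSG00000026285.7, mm10 chromosome 1, 94038305 to 94052553, minus strand) encodes PD-1, which is low on resting T cells and induced by antigen. It had 6.23, 8.22, 9.94 and 9.78 CPM in the KO libraries, in the order listed above, and 3.86, 2.70, 4.23 and 3.46 CPM in the WT libraries. Every KO library was above every WT library. The counts behind these levels were small, 51 to 92 reads per KO library and 15 to 95 per WT library. Means were 8.54 ± 1.73 CPM for KO and 3.57 ± 0.66 CPM for WT (SD, n = 4 each), and the rise was 2.33-fold (95% interval 1.71 to 3.18; log2 fold change 1.22, SE 0.22, edgeR adjusted p = 0.000318). Exact permutation of the libraries between the groups (2-sided, 70 arrangements) gave p = 0.0286, which is the lowest value possible here. By log2 fold change Pdcd1 ranked 46 of the 468 genes that were higher in KO. The spread between KO libraries (coefficient of variation 20.2%) was above the 11.8% that counting alone would give, with Sample_2907_KO lowest, and in WT the spread of 18.4% was close to the counting value of 18.8%. Pdcd1 passed the threshold in all 18 processing alternatives, at log2 fold changes of 1.13 to 1.43.

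The sequence upstream of Pdcd1 is shown because it is the only one of the 9 genes called. The stretch holds the 250 bases before the start site in the RefSeq table (GRCm38.p6, chr1:94052554-94052803, minus strand), with motif matches in capitals.
Pdcd1: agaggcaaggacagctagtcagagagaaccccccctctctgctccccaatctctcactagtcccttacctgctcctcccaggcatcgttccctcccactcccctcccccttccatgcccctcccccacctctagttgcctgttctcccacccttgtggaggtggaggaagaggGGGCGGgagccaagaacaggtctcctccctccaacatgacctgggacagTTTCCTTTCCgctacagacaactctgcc
The motifs searched on both strands were GGAAA (the NFAT core), TGANTCA (AP-1), TTCNNNGAA (GAS, the element bound by STAT factors), the ISRE (GAAA, any 2 bases, GAAA; the interferon-stimulated response element) and GGGCGG (the GC box). Pdcd1 held 1 GC box, which starts 77 bases before the start site, and 2 NFAT cores on the opposite strand, which lie next to each other and start 28 and 23 bases before it. Among 32851 upstream stretches of the same length, 55.6% held an NFAT core, 32.7% a GC box, 7.02% a GAS match, 6.75% an AP-1 match and 2.98% an ISRE match. A match describes the letters only.

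Markers of regulatory and follicular T cells, which can carry PD-1, were measured in the same libraries. The 11 regulatory T cell markers summed to 175.5 to 253.6 CPM in KO and 116.2 to 124.5 CPM in WT. Of 10 tested ones 2 rose, Foxp3 and Tnfrsf18, while 3.98% of all tested genes rose. None fell, and of the log2 fold changes 7 were positive and 3 negative, with a median of 0.12, against -0.00047 over all genes tested. The sort had kept cells without CD25, which most regulatory T cells carry. Foxp3, the lineage factor, stood at 93.4 ± 27.1 CPM in KO cells and 8.41 ± 1.20 CPM in WT cells (SD, n = 4 each). Without Foxp3, a split made after its value was seen, the sum was 118.4 to 140.9 CPM in KO and 108.1 to 114.7 CPM in WT. Sample_2907_KO had the lowest level of both Pdcd1 and Foxp3 (55.1 CPM) among the KO libraries. It was also the lowest of them for Cd160, Lag3 and Cd5, but not for Btla, Cd96, Cd200 and Cd6. The 12 follicular helper and memory markers summed to 160.0 to 170.9 CPM in KO and 173.9 to 191.8 CPM in WT. None of the 7 tested ones rose and 1, Cd44, fell (2.41% of all tested genes fell), and Sostdc1 had 0 reads in all libraries. The part of these cells in the Pdcd1 result was not tested.

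The ligand genes of PD-1 were read in the same cells. Cd274, which encodes PD-L1, had 67.3, 82.3, 63.5 and 70.04 CPM in KO and 63.5, 56.1, 52.0 and 61.5 CPM in WT. The lowest KO library and the highest WT library differed by less than 0.1 CPM, without overlap. Cd274 rose by a log2 fold change of 0.29 (SE 0.084, edgeR adjusted p = 0.0299), and lost its call in 9 of 18 alternatives, with adjusted p up to 0.192. Pdcd1lg2, which encodes PD-L2 and lies close to Cd274 on chromosome 19, had too few reads for the test. Its reads were 6, 9, 12 and 4 in KO and 0, 0, 15 and 5 in WT, a pooled ratio of KO to WT of 2.04 (95% counting interval 1.12 to 3.77; exact permutation p = 0.0571). The ranges overlapped, at 0.536 to 1.30 CPM in KO and 0 to 0.669 CPM in WT.

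**Figure D3:**
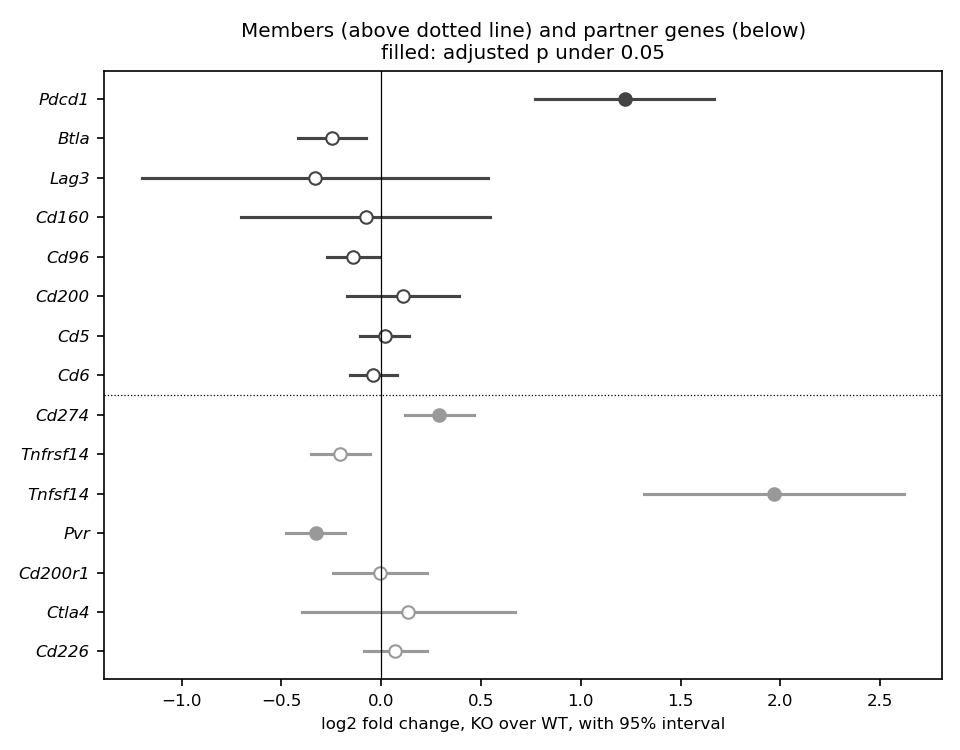
Log2 fold change, KO over WT, with its 95% interval, for the 8 tested members (dark, above the dotted line) and 7 tested partner genes (grey). Filled points passed an adjusted p under 0.05: Pdcd1 (1.22), Cd274 (0.29), Tnfsf14 (1.97) and Pvr (-0.33).

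BTLA and CD160 share a ligand, HVEM, which is encoded by Tnfrsf14 and also binds the cytokine LIGHT, encoded by Tnfsf14. Btla (ENSMUSG00000052013.14, chromosome 16, 45224315 to 45257670, plus strand) had 179.3, 196.1, 173.4 and 170.2 CPM in KO libraries and 179.9, 199.7, 219.9 and 249.4 CPM in WT libraries. The groups overlapped, with Sample_2911_WT inside the KO range and Sample_2915_WT highest. Means were 179.8 ± 11.5 CPM for KO and 212.2 ± 29.7 CPM for WT (SD, n = 4 each), with a log2 fold change of -0.25 (95% interval -0.42 to -0.076) that missed the threshold (edgeR adjusted p = 0.0865; unadjusted p = 0.0073 in the same test). Without Sample_2911_WT it passed (log2 fold change -0.32, adjusted p = 0.0039), and without Sample_2915_WT it was -0.16 (adjusted p = 0.240). The spread between WT libraries, a coefficient of variation of 14.0%, was far above the 2.44% that counting would give.

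The Btla stretch is shown beside that of Pdcd1 as the abundant receptor that came nearest to the threshold (GRCm38.p6, chr16:45224087-45224336, plus strand).
Btla: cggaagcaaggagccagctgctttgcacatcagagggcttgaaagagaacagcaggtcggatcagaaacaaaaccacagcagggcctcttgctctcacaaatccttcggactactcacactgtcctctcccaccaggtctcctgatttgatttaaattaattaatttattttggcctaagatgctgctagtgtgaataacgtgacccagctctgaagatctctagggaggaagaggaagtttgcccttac
It held none of the 5 motifs, so no letters are in capitals. The GC content was 60.4% upstream of Pdcd1 and 47.2% upstream of Btla, against a median of 52.4% over all stretches.

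**Figure D4:**
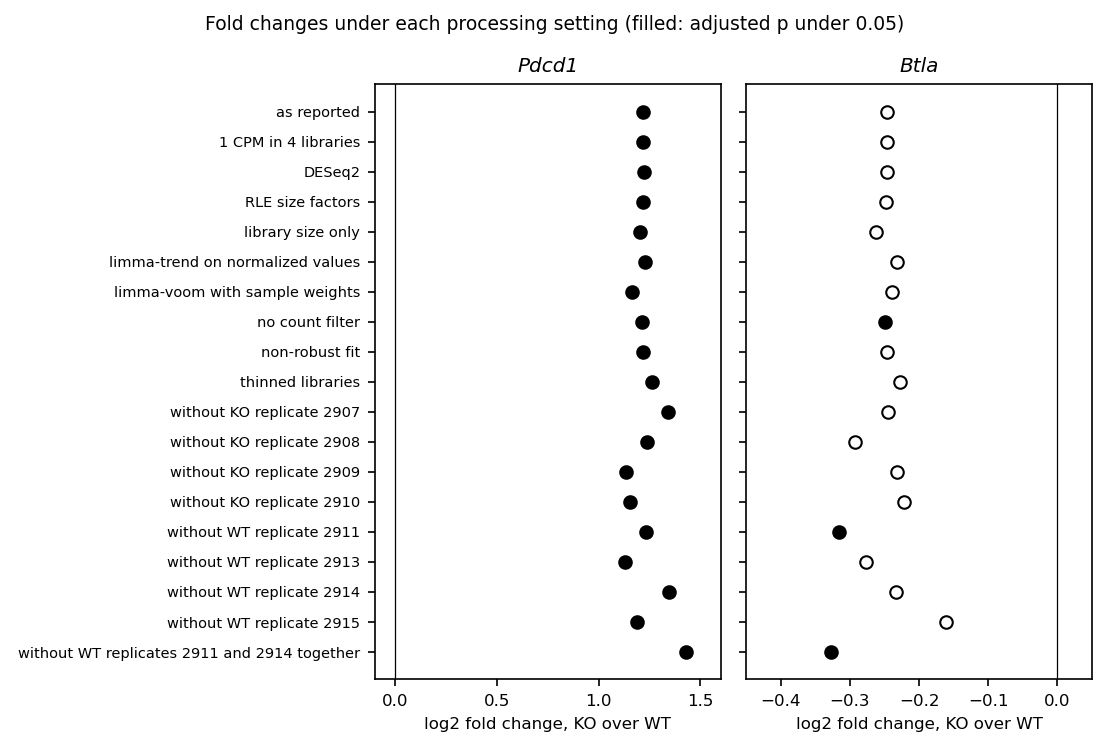
Log2 fold change of Pdcd1 (left) and Btla (right), KO over WT, as reported and under each of 18 processing alternatives; the 2 horizontal axes differ in scale. Pdcd1 is filled (adjusted p under 0.05) in every row, and Btla in 3 of the 18 alternatives.

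Cd160 (ENSMUSG00000038304.14, chromosome 3, 96798763 to 96829351, minus strand), a lipid-anchored receptor best known on cytotoxic cells, was scarce. Its levels were 1.47, 3.07, 4.00 and 3.48 CPM in KO and 2.12, 2.70, 3.70 and 3.64 CPM in WT. The groups overlapped, and Sample_2907_KO was lowest. The log2 fold change was -0.08 (edgeR adjusted p = 0.939), and its 95% interval of -0.70 to 0.55 spans levels from 0.615-fold to 1.46-fold of WT. Cd160 shares 68 bases of exon with Pdzk1 on the opposite strand, which had 14 reads in all, and no other member shared exon bases with another annotated gene.

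Both partner genes of this axis stood apart between the groups. Tnfsf14 had 4.64, 4.39, 4.11 and 6.03 CPM in KO and 1.35, 0.721, 1.56 and 0.952 CPM in WT, with no overlap. It rose by a log2 fold change of 1.97 (SE 0.32, edgeR adjusted p = 7.93e-05), in all 18 alternatives. Tnfrsf14 had 60.7 to 70.3 CPM in KO and 70.6 to 79.3 CPM in WT, again without overlap, but its log2 fold change of -0.20 missed the threshold (adjusted p = 0.0966). The ratio of Btla to Tnfrsf14 within a library was 2.55 to 2.85 in KO and 2.32 to 3.19 in WT, so the groups overlapped.

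TIGIT and CD96 bind CD155, encoded by Pvr, in competition with CD226. Cd96 (ENSMUSG00000022657.9, chromosome 16, 46035657 to 46120251, minus strand) had 146.9, 160.6, 134.2 and 154.3 CPM in KO and 177.2, 161.5, 165.8 and 153.1 CPM in WT. Sample_2915_WT lay inside the KO range. The log2 fold change was -0.14 (95% interval -0.27 to -0.01) and did not pass (edgeR adjusted p = 0.224), nor did it in any of 18 alternatives (adjusted p 0.0895 to 0.745). Cd226, the activating counterpart, had 56.8 to 65.0 CPM in KO and 51.7 to 61.7 CPM in WT (log2 fold change 0.07, adjusted p = 0.701). Cd96 over Cd226 within a library ranged from 2.26 to 2.62 in KO and from 2.48 to 3.43 in WT. NK cells also carry CD96, and their markers summed to 59.8 to 66.8 CPM in KO and 67.6 to 79.9 CPM in WT. Of 4 tested ones 1, Klrd1, fell (2.41% of all tested genes fell), and Ncr1 had 3 reads in KO and 4 in WT. Their part in the Cd96 values was not tested.

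Tigit (ENSMUSG00000071552.4, chromosome 16, 43648867 to 43664146, minus strand) was near the limit of detection. It had 0, 1, 0 and 1 reads in KO libraries and 1, 8, 4 and 2 reads in WT libraries, of which Sample_2913_WT alone held 8 of 15. In CPM per library this is 0 to 0.134 in KO and 0.173 to 1.44 in WT. The group means were 0.0609 CPM in KO and 0.497 CPM in WT. For comparison with these means, 3 reads over a whole group stand for 0.0882 CPM in KO and for 0.0671 CPM in WT. The pooled ratio of KO to WT was 0.175 (95% counting interval 0.0194 to 0.753; exact permutation p = 0.0286, the smallest the design allows). Without Sample_2913_WT the ratio was 0.329 with an interval of 0.0333 to 1.73 (exact permutation p = 0.0571), and without any 1 of the KO libraries the exact permutation p was 0.200 or 0.314. Intervals and limits cover counting error only.

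The shared ligand gene Pvr fell. It had 69.0, 73.3, 82.1 and 73.7 CPM in KO and 104.8, 94.1, 89.9 and 87.8 CPM in WT, with no overlap, and a log2 fold change of -0.33 (SE 0.072, edgeR adjusted p = 0.00352). The call was lost when Sample_2911_WT and Sample_2914_WT were left out together (-0.28, adjusted p = 0.0819). Nectin2, which encodes another ligand of TIGIT, had 0 reads in all libraries.

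Lag3 (ENSMUSG00000030124.2, chromosome 6, 124904361 to 124911705, minus strand), a relative of Cd4 whose product binds MHC class II, was tested on 5, 16, 12 and 5 reads in KO and 4, 8, 33 and 19 reads in WT. Levels were 0.611, 1.75, 1.30 and 0.670 CPM in KO and 0.772, 1.44, 1.47 and 1.64 CPM in WT, and the groups overlapped almost fully. The log2 fold change of -0.33 had a 95% interval of -1.20 to 0.53 (edgeR adjusted p = 0.758), so at this depth a level anywhere from 0.437-fold to 1.45-fold of WT could not be told from no change. Its MHC class II ligands, H2-Aa and H2-Ab1, had 12 and 18 reads in KO and the same numbers in WT at the larger total depth of WT, a pooled ratio of 1.31 for each (95% counting intervals 0.540 to 3.20 for H2-Aa and 0.645 to 2.68 for H2-Ab1).

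Cd200 (ENSMUSG00000022661.14, chromosome 16, 45382135 to 45409053, minus strand) had 13.8, 16.6, 15.2 and 13.3 CPM in KO and 11.4, 13.7, 15.1 and 13.7 CPM in WT. The ranges overlapped, and the log2 fold change of 0.11 (95% interval -0.17 to 0.39) did not pass (edgeR adjusted p = 0.753). The spread between libraries, 10.1% in KO and 11.3% in WT, was close to the 8.97% in KO and 9.68% in WT that counting alone would give. Cd200r1, which encodes the receptor for CD200 and is best known on myeloid cells, had 26.3 ± 4.55 CPM in KO cells and 26.4 ± 1.70 CPM in WT cells (SD, n = 4 each; log2 fold change -0.01, adjusted p = 0.989).

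Cd5 and Cd6 had the smallest standard errors of the log2 fold change among the tested members (0.060 for Cd5 and 0.057 for Cd6). Cd5 (ENSMUSG00000024669.7, chromosome 19, 10717116 to 10739002, minus strand), a negative regulator whose surface level follows the strength of self-recognition in the thymus, had 424.4, 459.8, 464.6 and 514.4 CPM in KO and 443.3, 463.2, 501.0 and 430.0 CPM in WT. The log2 fold change was 0.02 with a 95% interval of -0.10 to 0.14 (edgeR adjusted p = 0.920), which bounds a change between 0.930-fold and 1.10-fold. Cd6 (ENSMUSG00000024670.16, chromosome 19, 10789341 to 10830058, minus strand), whose product binds CD166, had 498.9, 498.2, 547.8 and 582.1 CPM in KO and 534.6, 560.0, 572.3 and 518.0 CPM in WT. Its log2 fold change was -0.04 with a 95% interval of -0.16 to 0.08 (adjusted p = 0.795). Within a library the ratio of Cd5 to Cd6 was 0.848 to 0.923 in KO and 0.827 to 0.875 in WT. Alcam, which encodes CD166, had 38 reads in KO and 38 in WT (pooled ratio 1.31, 95% counting interval 0.816 to 2.12).

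Pdcd1, Cd160 and Lag3 are each alone among the members on their chromosome. On chromosome 16 lie 4 members, Tigit, Btla, Cd200 and Cd96, with gaps of 1.56 Mb from Tigit to Btla, 124.5 kb from Btla to Cd200 and 626.6 kb from Cd200 to Cd96. Cd5 and Cd6 lie 50.3 kb apart on chromosome 19, on the same strand. The nearest tested protein-coding genes on either side of the members number 14 when members themselves are left out, and 2 of them changed, both lower. Over all tested genes 6.39% changed and 2.41% were lower, and 14 genes are too few to set apart from that share. Plcxd2, which lies 25.4 kb from Cd96, had 82.8 ± 2.43 CPM in KO cells and 104.0 ± 4.63 CPM in WT cells (SD, n = 4 each; log2 fold change -0.33, edgeR adjusted p = 0.000899). Cd4, which lies 16.1 kb from Lag3, had 583.0 ± 33.2 CPM in KO cells and 667.6 ± 28.9 CPM in WT cells (-0.19, adjusted p = 0.0242). Neither neighbour of Pdcd1 passed: D2hgdh, 186.0 kb away, had -0.14 (adjusted p = 0.516), and Fam174a, 1261 kb away, had -0.11 (adjusted p = 0.737).

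The rest of the inhibitory pathway was read from gene lists. Of 20 other inhibitory receptors and negative regulators 10 were tested, of which 2 rose and 1 fell, with a median log2 fold change of 0.14. For this list and those that follow, the share over all tested genes was 3.98% higher and 2.41% lower. Lax1, a membrane adaptor that restrains antigen receptor signalling, had 124.5 ± 9.98 CPM in KO cells and 90.9 ± 4.69 CPM in WT cells (log2 fold change 0.46, edgeR adjusted p = 1.63e-05), and Tnfrsf18, which encodes GITR, a costimulatory receptor despite its place in the list, rose by 0.50 (adjusted p = 0.00851). Sit1, an adaptor that recruits SHP-2 below the T cell receptor, fell to 59.4 ± 3.54 CPM in KO, against 87.3 ± 3.36 CPM in WT (-0.56, adjusted p = 1.59e-06). Ctla4, which competes with CD28 for its ligands, stood at 6.96, 8.11, 11.2 and 9.64 CPM in KO and 3.09, 10.5, 9.76 and 8.31 CPM in WT (log2 fold change 0.14, adjusted p = 0.847). Havcr2 and Klrg1, which encode TIM-3 and KLRG1 and were named after their values were seen, had 0 reads each in KO and 2 each in WT. Tnfrsf18 lost its call without Sample_2909_KO (adjusted p = 0.0696), with all libraries thinned to the depth of the shallowest (0.0544) and without Sample_2911_WT and Sample_2914_WT together (0.0917).

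**Figure D5:**
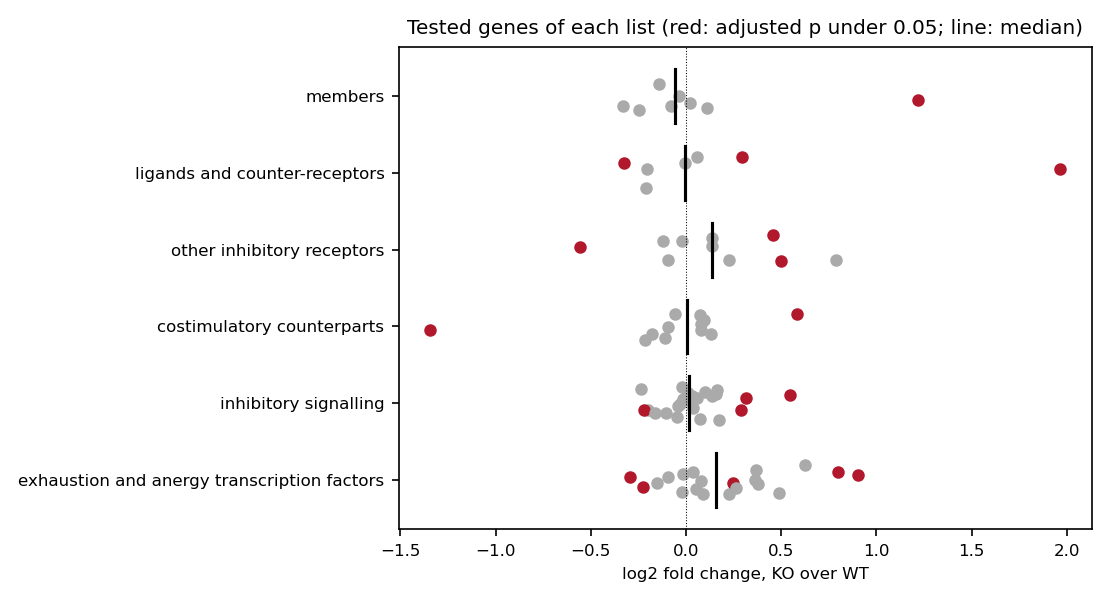
Log2 fold change, KO over WT, of each tested gene in 6 lists; red points passed an adjusted p under 0.05 and black lines mark the list median. The medians lie between -0.06 (members) and 0.16 (transcription factors), and the extremes are Tnfsf14 (1.97) and Crtam (-1.34).

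Among 16 ligands and counter-receptors 7 were tested, with 2 higher (Tnfsf14 and Cd274) and 1 lower (Pvr), and a median log2 fold change of -0.01. All 12 costimulatory counterparts were tested, with 1 higher and 1 lower (median 0.01). Slamf6, a self-binding receptor of the SLAM family, had 466.9 ± 39.3 CPM in KO cells and 310.6 ± 28.4 CPM in WT cells (log2 fold change 0.58, edgeR adjusted p = 5.59e-07). Crtam, an adhesion receptor of activated T cells related to CD96 and CD226 in its ligand family, fell to 4.04 ± 0.99 CPM in KO, against 10.3 ± 1.69 CPM in WT (-1.34, adjusted p = 3.64e-05).

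The list of 27 genes for inhibitory signalling inside the cell also holds genes with other roles, such as Lck, Fyn and Grb2. Of these 27 genes 26 were tested, of which 3 rose and 1 fell (median log2 fold change 0.02). Tsc22d3, the glucocorticoid-induced leucine zipper, had 411.1 ± 29.5 CPM in KO cells and 281.2 ± 35.8 CPM in WT cells (0.55, edgeR adjusted p = 0.000205). Rasa1, a GTPase-activating protein of Ras, rose by 0.31 (adjusted p = 0.000336), and Ptpn22, a phosphatase of Lck and ZAP-70, by 0.29 (adjusted p = 0.00109). Dgka, which removes diacylglycerol, had 2067 ± 50.6 CPM in KO cells and 2411 ± 15.2 CPM in WT cells (-0.22, adjusted p = 0.00258). The phosphatase genes that serve PD-1 and BTLA, named after their values were seen, did not pass: Ptpn6, which encodes SHP-1, had a value of 0.18 on the log2 scale (adjusted p = 0.0818), and Ptpn11, which encodes SHP-2, had -0.02 (adjusted p = 0.912).

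Of 23 transcription factors tied to exhaustion, anergy or their restraint 20 were tested, of which 3 rose and 2 fell (median log2 fold change 0.16). Id2, an inhibitor of E proteins, had 69.6 ± 3.13 CPM in KO cells and 40.2 ± 2.33 CPM in WT cells (0.80, edgeR adjusted p = 1.4e-08). Irf4 had 12.1 ± 1.35 CPM in KO cells and 6.52 ± 0.83 CPM in WT cells (0.91, adjusted p = 0.000647), and Ikzf3, which encodes Aiolos, rose by 0.25 (adjusted p = 0.00789). Tcf7 and Bach2, which hold T cells in the naive and stem-like state, fell by 0.29 (adjusted p = 0.000291) and 0.23 (adjusted p = 0.0107) on the log2 scale. Tox, the factor best known for the exhausted state, named after its value was seen, stood at 64.1 ± 4.37 CPM in KO cells and 59.8 ± 3.40 CPM in WT cells (0.09, adjusted p = 0.581). Ikzf3 lost its call in 3 of 18 alternatives, without Sample_2910_KO, where its adjusted p was just above 0.05, without Sample_2915_WT (0.0518) and without Sample_2911_WT and Sample_2914_WT together (0.115), and Bach2 in 1, without Sample_2915_WT (0.0659).

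The genes whose levels moved most like Pdcd1 were sought among 9543 other genes that averaged 5 CPM or more, by the root mean square difference of centred log2 CPM profiles over the 8 libraries. The nearest was Rnf135, a ubiquitin ligase of the RIG-I pathway, at 0.146, with 10.3 ± 1.48 CPM in KO cells and 4.24 ± 1.29 CPM in WT cells. It was followed by Ifi27l2a, an interferon-induced gene, at 0.175 (119.2 ± 9.74 CPM in KO cells and 60.8 ± 4.74 CPM in WT cells), and P2ry10, a receptor for lysophospholipids, also at 0.175 (204.3 ± 19.7 CPM in KO cells and 102.6 ± 15.2 CPM in WT cells). This measure of likeness includes the difference between the groups, so it finds genes that rose by a like amount.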

How the data were processed

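RNA-seq was analysed from 2 deposited tables. In the deposited count table, 53465 Ensembl IDs have whole-number read counts. The deposited normalized signal table holds the 16418 genes with at least 10 reads in all, each value being the count divided by 1 size factor per library, as found from the 2 tables. Per the labels' protocols, poly(A) RNA was made into TruSeq libraries and sequenced as single reads of 75 bases. DESeq2 1.22.2, R 3.5.3, CASAVA 1.8.2 and FastQC, with build mm10, are named in the submitters' processing notes. Which aligner, counter and annotation were used, and whether strand was counted, is not given in the sources used here. Positions and exon lengths came from GENCODE M21 (GRCm38, the assembly of mm10), which held all 9 members, and upstream sequences from RefSeq, which held 7 of them.

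KO was compared with WT in edgeR 4.0.16 under R 4.3.3, on the deposited counts after filterByExpr and TMM scaling, with the quasi-likelihood test in its robust form. Adjustment over 11772 genes followed Benjamini-Hochberg. Steps were tested on simulated data, where 92% of genes changed by 1.5-fold and 96% of those changed by 2-fold were called. Of all calls there, 8.53% fell on unchanged genes, at the same threshold of an adjusted p under 0.05. Replicate libraries within a group all differed beyond sampling noise (chi-square per gene 2.62 to 12.1). Each standard error was taken as |log2 fold change| divided by the root of its F value. Pooled reads were compared by the exact conditional 95% interval. Named genes are the members, their direct partners, every called gene of the lists (up to 6 a list), neighbouring genes and the 3 nearest profiles to a called member. The lists of cell type markers were outside this rule, and not every called gene in them is named. The members and lists were chosen with earlier results of these data known. Alternatives used DESeq2 1.42.0, limma 3.58.1 (voom with sample weights, and trend on log2 of the normalized value plus 1), other scalings and filters (including 1 CPM in 4 libraries), thinning to 5227758 reads, and left-out libraries.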

Additional observations from a re-analysis of the deposited data

Results flagged for a closer look

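In 3 of 66 groups of 4 libraries, 1 library stood far from the other 3 of its group, by the gap to its nearest neighbour as a share of the group's range; chance gives about 1 in 20. Tigit had 1.44 CPM in Sample_2913_WT, against 0.173 to 0.193 CPM in the other WT libraries. Sit1 had 82.3 CPM in Sample_2915_WT, against 88.6 to 89.6 CPM in the others. Alcam had 1.71 CPM in Sample_2907_KO, against 0.877 to 0.973 CPM in the other KO libraries.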

How the results depend on the processing

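Pdcd1 kept its direction and its call in all 18 alternatives, and of 18 called genes followed, Pdcd1 included, 13 did. The number of changed genes over the table was 481 without Sample_2911_WT and Sample_2914_WT together and 562 to 836 with each library left out in turn. The number of changed members was 2, by the addition of Btla, with no count filter, without Sample_2911_WT, and without Sample_2911_WT and Sample_2914_WT together; it was 1 to 2 with each library left out in turn. The pooled Tigit ratio was 0.112 to 0.329 with each library left out in turn. Signs that turned belonged to genes that were not called. Cd160 had log2 fold changes of 0.030 with thinning and up to 0.15 with a library left out (0.15 without Sample_2907_KO, 0.043 without Sample_2914_WT; lowest -0.25), Cd5 -0.032 without Sample_2910_KO and -0.014 without Sample_2915_WT (highest 0.063), Cd200r1 0.034, 0.081, 0.025 and 0.00061 without Sample_2909_KO, Sample_2910_KO, Sample_2913_WT and Sample_2914_WT in turn (lowest -0.099), and Ctla4 -0.071 without Sample_2911_WT and -0.037 without Sample_2911_WT and Sample_2914_WT together (highest 0.27 with 1 library left out). The cause was not tested. Lag3 was not tested with thinning, where it had too few reads. No paired analysis was possible because the groups share no replicate numbers. Depth limits Tigit, Lag3 and Cd160 most.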
